A study of Mus musculus with 6 samples.

Results

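Metalloproteinases of the extracellular matrix and their inhibitors were described here on the arrays of 2 mouse cell types. The members are the probe sets of the deposited table that are paired with exactly 1 gene symbol of the Mmp, Adam, Adamts, Adamtsl or Timp families, or with Reck. The rule found 52 probe sets among the 11288 with 1 symbol, which stand for 38 of 10261 genes. These are 10 matrix metalloproteinases (MMPs), 9 ADAMs, 11 ADAMTSs, 4 ADAMTS-like proteins and 4 inhibitors. Timp4 and other genes of these families were not analysed here. The rule used symbols and no measured values, but it was chosen with earlier results of these data known.

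MMPs are zinc-dependent enzymes that cut collagens and other matrix proteins, and most are made with a propeptide that keeps them inactive until it is removed. ADAMs are membrane proteins, many of which release growth factors, cytokines and adhesion molecules from the cell surface. ADAMTSs are secreted relatives that cut proteoglycans and process procollagens, and ADAMTS-like proteins share their carboxy-terminal parts but lack the protease domain. TIMPs and the membrane-anchored protein RECK inhibit these enzymes, so that matrix turnover in skin and connective tissue depends on both sides. The arrays measure RNA and say nothing of propeptide removal or enzyme activity.

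Total RNA of untreated primary cells was hybridised to 6 Affymetrix MoGene-1_0-st arrays, of which 3 are labelled keratinocytes and 3 are labelled MEFs. The keratinocytes, the main cells of the epidermis, came from the back skin of newborn mice at P0 (postnatal day 0) and were grown in an epidermal keratinocyte medium, and no source used here names their strain. The MEFs are mouse embryonic fibroblasts of E13.5 embryos, grown in DMEM with serum. The methods give C57BL/6J as their strain, whereas the isolation protocol names DR-4 as the strain wanted. That protocol pools embryos without head and inner organs, so that MEFs hold cells of several mesenchymal tissues. Age, medium and cell type cannot be told apart in this design. In such bulk RNA, fewer cells of a type and less RNA per cell cannot be told apart either. The labels call the replicates biological and do not name the animals.

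The deposited values are log2 signals, on which a step of 1 is a doubling. A signal was called above background when it exceeded the 95th percentile of its array's 10 probe sets for olfactory receptors, which lay at 5.49 to 5.92 on the keratinocyte-labelled arrays and at 6.05 to 6.58 on the MEF-labelled ones. This is a high and rough level, and a gene below it need not be silent. Where all arrays of the dimmer group were below it, a fold is a lower bound, computed against the background level or the signal of the gene, whichever was higher. Where both groups were below it, or the bound came to less than 1, no fold is given. A gene passed at a Benjamini-Hochberg adjusted p under 0.05 in limma, fitted over all 11288 probe sets, with the brightest probe set standing for a gene. The median log2 difference over all genes, labelled keratinocytes minus labelled MEFs, was -0.12.

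The 2 genes used to check the labels ran against them. Cdh1, which encodes the epithelial adhesion protein E-cadherin, gave log2 signals of 3.33, 2.16 and 3.26 on the keratinocyte-labelled arrays and of 8.62, 8.59 and 8.73 on the MEF-labelled ones (limma, adjusted p = 4.03e-07). Vim, which encodes the mesenchymal filament protein vimentin, had 11.93, 11.97 and 12.03 on the keratinocyte-labelled arrays and 3.81, 3.92 and 3.78 on the MEF-labelled ones (limma, adjusted p = 7.89e-10). So the keratinocyte-labelled arrays carried the mesenchymal marker, and all directions below are given for the arrays as labelled. All 9 keratinocyte markers on the list, such as Krt5 and Krt14, were higher on the MEF-labelled arrays, with a summed linear signal of 15900 to 16000 against 99.3 to 105. All 9 fibroblast markers, such as Col1a1 and Pdgfrb, were higher on the keratinocyte-labelled arrays, with 18300 to 18900 against 102 to 122. With 3 arrays against 3, an exact two-sided permutation test of a single gene cannot give a p below 0.1. The smaller p values from limma rest on its model, in which the spread is partly pooled over genes.

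Of the 38 genes, 31 were higher on the keratinocyte-labelled arrays, those with high Vim, 5 were higher on the MEF-labelled arrays and 2 did not pass. Over all genes tested, 32.9% were higher on the keratinocyte-labelled arrays and 41.7% on the MEF-labelled ones, whereas the shares among the members were 81.6% and 13.2%. The median difference of the members was 1.73 on the log2 scale, against -0.12 over all genes. For many members the dimmer group was above background on no array, so the size of this median is not reliable. The same holds for the medians of the MMPs, ADAMs and ADAMTSs below. A log2 difference of at least 1 was found for 23 members in the direction of the keratinocyte-labelled arrays, where 14.1% of all genes reached it. In the other direction it was found for 3, where 14.4% did. Among these, Mmp17, Adamts3 and Adamtsl1 in the first direction and Mmp25 in the second were above background on no array. The 3 arrays of one group lay apart from the 3 of the other for 37 members (97.4%), against 78.4% of all genes.

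The members fell into kinds by where they could be measured. Above background on all 6 arrays were 11 genes, 8 of them higher on the keratinocyte-labelled arrays, 2 higher on the MEF-labelled ones and 1 not passing, with folds of 1.12 to 10.6. A further 13 were above background on the 3 keratinocyte-labelled arrays and on none labelled MEFs, a pattern of 9.67% of all genes. Adam8 was the single member with the opposite pattern, which 3.06% of all genes showed. The background level was lower on the keratinocyte-labelled arrays, as given above, which favours the first pattern. The remaining 13 consist of 7 that reached background on some arrays only and 6 that reached it on none, namely Mmp17, Mmp25, Adam11, Adam33, Adamts3 and Adamtsl1.

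**Figure D1:**
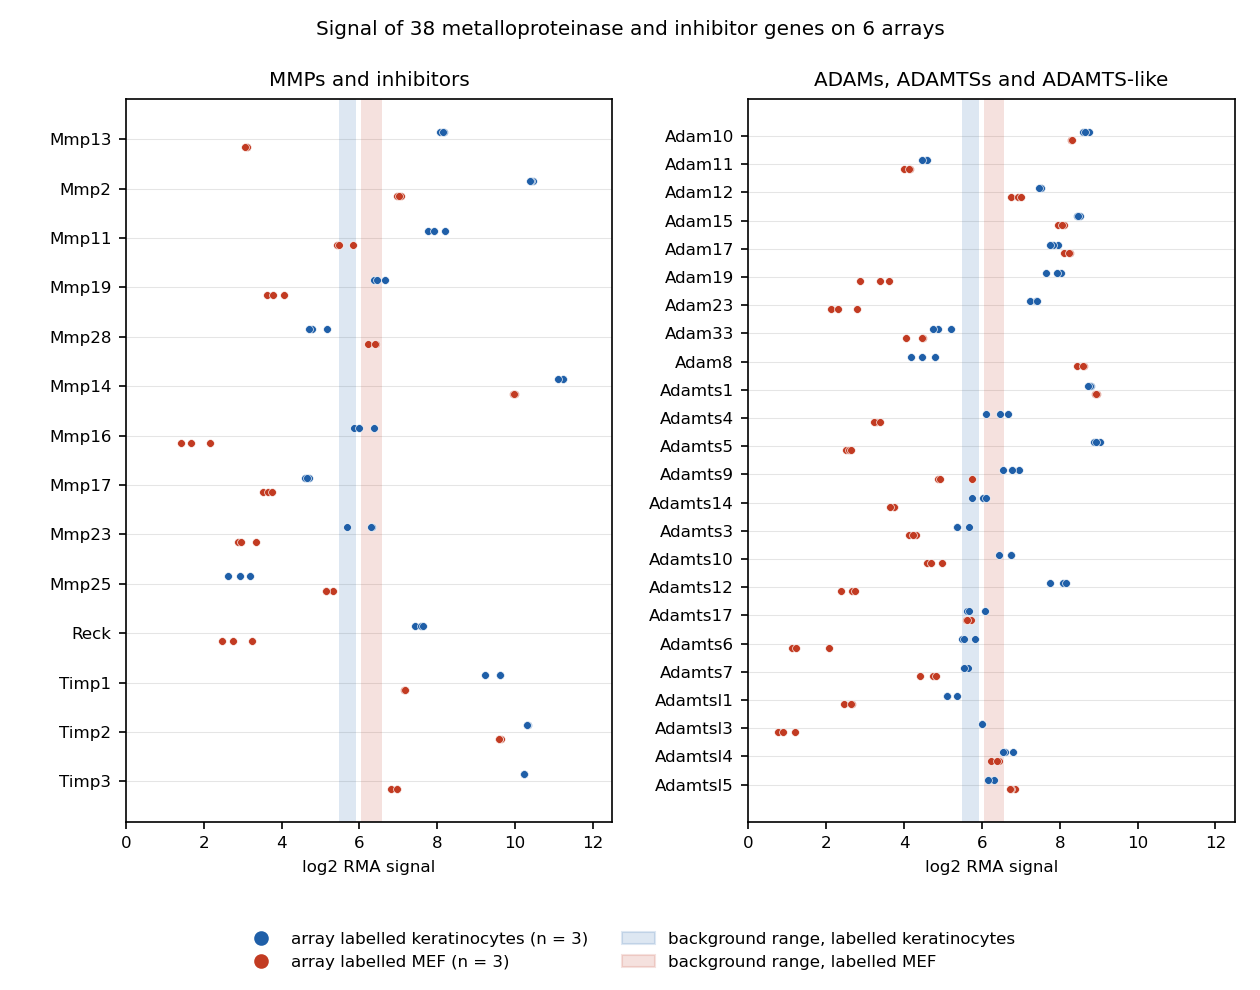
Log2 RMA signal (horizontal axis) of the 38 genes, MMPs and inhibitors on the left and ADAMs, ADAMTSs and ADAMTS-like proteins on the right, with each point an array labelled keratinocytes (blue) or MEF (red) and each band the range of the background level over the 3 arrays of that label. Blue points lie to the right of red ones for most genes, and Adam8, Mmp28, Mmp25, Adamtsl5, Adam17 and Adamts1 show the opposite order.

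Promoter sequences are shown for chosen members that passed in either direction, so that well-known regulatory motifs can be read in genes of both kinds. They were not ranked by difference, and other members with windows and larger differences than Mmp28, such as Adamts12, are not shown. Mmp28 was above background on 1 MEF-labelled array only. Windows from 250 bases before to 50 bases after the RefSeq transcript start (build GRCm38.p6) were matched by symbol for 25 of the 38 genes, which gave 28 windows. Each stretch runs 5′ to 3′ on the strand of the gene and, except that of Adam19, ends at the base before the start. Capitals mark matches that lie wholly inside the stretch: the AP-1 motif TGANTCA, the PEA3 motif AGGAAG of ETS factors and the GC box GGGCGG, each on either strand, and the TATA box TATAAA on the strand of the gene. Each motif was counted on its own, also where it overlapped another.
Mmp13, high on the keratinocyte-labelled arrays, chr9:7272394-7272513, + strand: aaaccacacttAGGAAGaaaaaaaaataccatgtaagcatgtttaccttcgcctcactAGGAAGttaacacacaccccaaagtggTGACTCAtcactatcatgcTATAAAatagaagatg
Reck, high on the keratinocyte-labelled arrays, chr4:43875410-43875529, + strand: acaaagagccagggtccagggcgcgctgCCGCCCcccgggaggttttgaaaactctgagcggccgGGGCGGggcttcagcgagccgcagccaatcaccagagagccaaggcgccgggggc
Adam19, high on the keratinocyte-labelled arrays, chr11:46055829-46055883, + strand, AP-1 match only: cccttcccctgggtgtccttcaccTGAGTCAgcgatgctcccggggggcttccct
Adam8, high on the MEF-labelled arrays, chr7:139992563-139992682, - strand: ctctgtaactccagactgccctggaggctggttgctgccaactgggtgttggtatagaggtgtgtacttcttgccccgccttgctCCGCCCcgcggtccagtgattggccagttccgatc
Mmp28, high on the MEF-labelled arrays, chr11:83463041-83463160, - strand: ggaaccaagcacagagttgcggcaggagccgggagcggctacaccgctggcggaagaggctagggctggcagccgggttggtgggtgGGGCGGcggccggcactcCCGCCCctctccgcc
The Mmp13 stretch holds an AP-1 match that begins at position -35, counted from the start, PEA3 matches at -109 and -62 and a TATA box at -16. The Adam19 stretch covers positions -155 to -101 of the second window of that gene, with the AP-1 match at -131. The Reck, Adam8 and Mmp28 stretches hold GC boxes and neither an AP-1 match nor a TATA box. Over all members, 2 of the 28 windows (7.14%) held the AP-1 motif, those of Mmp13 and Adam19, against 7.81% of the 32851 windows of all genes. The PEA3 motif was in 32.1% of member windows and 35.4% of all, and the TATA box, in Mmp13 and Adamts1, in 7.14% and 8.32%. GC boxes were in 21 of the 28 windows (75%), against 35.7% of all windows. Among the 21 genes with a GC box, 15 were higher on the keratinocyte-labelled arrays and 5 on the MEF-labelled ones. The shares were 81.6% and 13.2% over all members, and 32.9% and 41.7% over all genes. Every member without a window was higher on the keratinocyte-labelled arrays, so the windows leave out genes of that direction only. These counts are therefore no result about the GC box. A match describes letters and not a bound site.

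Of the 10 MMPs, 8 were higher on the keratinocyte-labelled arrays and 2 on the MEF-labelled ones, with a median log2 difference of 2.52. The shares over all genes were 32.9% and 41.7%. Mmp13, which encodes the collagenase that cuts fibrillar collagens and whose promoter is shown above, gave log2 signals of 8.07, 8.17 and 8.14 on the keratinocyte-labelled arrays and of 3.11, 3.11 and 3.06 on the MEF-labelled ones. The groups were far apart and each was tight, and Mmp13 was at least 3.34-fold higher on the keratinocyte-labelled arrays (limma, adjusted p = 2.58e-09). Mmp2, the gelatinase that digests denatured collagen and basement membrane collagen, had 10.47, 10.41 and 10.39 against 7.07, 6.97 and 7.02. Both groups were above background here, so its fold of 10.6 was measured on both sides (limma, adjusted p = 9.73e-09). Mmp11, a stromelysin that furin activates inside the cell, had 7.75, 8.21 and 7.91 against 5.83, 5.43 and 5.47. It was above background on the keratinocyte-labelled arrays alone, at least 2.96-fold higher (limma, adjusted p = 2.14e-06).

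The other secreted MMPs went in opposite directions. Mmp19 gave log2 signals of 6.38, 6.46 and 6.65 on the keratinocyte-labelled arrays and of 4.07, 3.62 and 3.79 on the MEF-labelled ones, a bound of at least 1.08-fold (limma, adjusted p = 4.78e-07). Mmp28, or epilysin, which is known from the epidermis, had 4.79, 4.71 and 5.17 against 6.22, 6.42 and 6.40. It was higher on the MEF-labelled arrays, those with high Cdh1, by at least 1.56-fold (limma, adjusted p = 2.12e-05), although only 1 of these 3 arrays, replicate 2, was above its background.

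Among 5 measured MMPs that are held in the membrane, 4 were higher on the keratinocyte-labelled arrays, against 32.9% of all genes. Mmp14, which encodes the MT1-MMP that activates the MMP2 proenzyme at the cell surface, gave log2 signals of 11.22, 11.23 and 11.11 on the keratinocyte-labelled arrays and of 9.96, 9.99 and 9.97 on the MEF-labelled ones. It was well above background in both groups and 2.33-fold higher in the former (limma, adjusted p = 3.53e-06). Mmp16, a related transmembrane MMP, had 6.37, 5.87 and 5.99 against 1.67, 1.42 and 2.17 (limma, adjusted p = 3.32e-07). Mmp23 had 5.68, 6.33 and 6.30 against 2.88, 3.34 and 2.95 (limma, adjusted p = 2.24e-06). For both, 2 of the 3 keratinocyte-labelled arrays were above background, and the high background on the MEF-labelled arrays leaves no fold to give. The pair anchored by a lipid tail, Mmp17 and Mmp25, passed in opposite directions below background. Mmp17 stood at 4.65 ± 0.06 (SD, n = 3) on the keratinocyte-labelled arrays against 3.65 ± 0.11 (SD, n = 3), and Mmp25 at 2.90 ± 0.28 against 5.20 ± 0.10.

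Each of the 4 measured inhibitors was higher on the keratinocyte-labelled arrays, where 32.9% of all genes were higher, with a median log2 difference of 2.82. Timp1 gave log2 signals of 9.22, 9.62 and 9.61 on the keratinocyte-labelled arrays and of 7.17, 7.14 and 7.18 on the MEF-labelled ones, a difference of 5.00-fold (limma, adjusted p = 6.57e-07). Timp2, whose protein also takes part in the activation of MMP2 by MT1-MMP, had 10.32, 10.31 and 10.30 against 9.65, 9.59 and 9.59, a difference of 1.62-fold (limma, adjusted p = 8.93e-05). Timp3, whose protein binds to the matrix and also inhibits ADAM17 and ADAMTSs, had 10.23, 10.23 and 10.24 against 6.97, 6.81 and 6.96, a difference of 10.0-fold (limma, adjusted p = 1.33e-08). All 3 TIMP genes were above background on all 6 arrays, and their groups did not overlap. The 95% intervals of their log2 differences, 2.04 to 2.61 for Timp1, 0.51 to 0.89 for Timp2 and 3.12 to 3.53 for Timp3, did not touch each other. Reck had 7.43, 7.59 and 7.63 on the keratinocyte-labelled arrays and 2.76, 3.25 and 2.48 on the MEF-labelled ones. Unlike the TIMP genes it was above background in the first group alone, where it was at least 2.24-fold higher (limma, adjusted p = 9.56e-08).

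Of the 9 ADAM genes, 7 were higher on the keratinocyte-labelled arrays and 2 on the MEF-labelled ones, with a median log2 difference of 0.45. All genes together had shares of 32.9% and 41.7%. Adam23, which encodes an ADAM without a working protease site that acts in adhesion, gave log2 signals of 7.38, 7.23 and 7.42 on the keratinocyte-labelled arrays and of 2.11, 2.31 and 2.79 on the MEF-labelled ones, at least 1.94-fold higher in the former (limma, adjusted p = 4.58e-08). Adam19, or meltrin beta, had 7.66, 8.04 and 7.93 against 3.60, 3.39 and 2.87, at least 2.81-fold higher (limma, adjusted p = 1.43e-07). Adam8, best known from leukocytes, had 4.45, 4.79 and 4.17 against 8.45, 8.62 and 8.59. This made it at least 7.22-fold higher on the MEF-labelled arrays (limma, adjusted p = 8.36e-08) and not above background on any keratinocyte-labelled array.

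Adam10 and Adam17, which encode the sheddases that release Notch and cadherin fragments and TNF and EGF receptor ligands respectively, were above background on all 6 arrays and passed in opposite directions. Adam10 gave log2 signals of 8.74, 8.61 and 8.65 on the keratinocyte-labelled arrays and of 8.28, 8.30 and 8.32 on the MEF-labelled ones, 1.29-fold higher in the former (limma, adjusted p = 4.77e-03). Adam17 had 7.95, 7.83 and 7.75 against 8.12, 8.27 and 8.25, 1.29-fold higher in the latter (limma, adjusted p = 8.12e-03). Neither pair of groups overlapped, but both differences are small. Adam12, or meltrin alpha, had 7.52, 7.51 and 7.46 against 6.76, 6.92 and 7.01, 1.51-fold higher on the keratinocyte-labelled arrays (limma, adjusted p = 6.21e-04). Adam15 had 8.44, 8.53 and 8.46 against 8.12, 7.95 and 8.05, 1.35-fold higher there (limma, adjusted p = 2.30e-03). Adam11 and Adam33 were higher there too, by 0.45 and 0.60 on the log2 scale, on signals that were above background on no array.

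In the limma fit described above, no ADAMTS gene passed as higher on the MEF-labelled arrays, where 41.7% of all genes did. On the keratinocyte-labelled ones 9 of 11 were higher, against 32.9% of all genes. The other 2 did not pass, and the median log2 difference was 1.89. Adamts5, an aggrecanase that cuts the cartilage proteoglycan aggrecan as well as versican, gave log2 signals of 9.03, 8.88 and 8.93 on the keratinocyte-labelled arrays and of 2.50, 2.58 and 2.63 on the MEF-labelled ones. The fold was at least 5.91, higher in the former (limma, adjusted p = 1.54e-09). Adamts4, the other classical aggrecanase, had 6.46, 6.67 and 6.11 against 3.27, 3.23 and 3.39 and passed in the same direction (limma, adjusted p = 2.99e-07), with a bound of at least 1.02-fold. Adamts9 had 6.96, 6.53 and 6.77 against 5.74, 4.86 and 4.93, at least 1.29-fold higher (limma, adjusted p = 3.41e-04). Adamts1, which encodes a further versican-cutting enzyme, was bright in both groups, with 8.80, 8.78 and 8.73 against 8.91, 8.95 and 8.93. Its MEF-labelled arrays all lay above the others, but the difference of 1.12-fold did not pass (limma, adjusted p = 0.104), and the 95% interval of the log2 difference ran from -0.35 to 0.03. With an intensity trend and robust estimation it passed as higher on the MEF-labelled arrays (limma, adjusted p = 0.0453), as it did with the methods' t-test (adjusted p = 0.00767). Its log2 difference was -0.07 with median centring.

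The procollagen N-propeptidases, which trim the amino end of fibrillar procollagens, were represented by Adamts14 and Adamts3. Adamts14 gave log2 signals of 5.74, 6.02 and 6.10 on the keratinocyte-labelled arrays and of 3.74, 3.75 and 3.64 on the MEF-labelled ones (limma, adjusted p = 5.12e-07). It was above background on the 3 arrays of the former, but only just, so that no fold can be given. Adamts12, which encodes an enzyme that cuts the cartilage protein COMP, had 8.08, 8.16 and 7.75 against 2.65, 2.73 and 2.37, at least 3.06-fold higher on the keratinocyte-labelled arrays (limma, adjusted p = 1.30e-08). Its close relative Adamts7 passed in the same direction, with 5.60, 5.63 and 5.54 against 4.41, 4.75 and 4.83 (limma, adjusted p = 1.79e-04), with only 1 array above background and a bound under 1. Adamts10, a gene of fibrillin microfibrils, had 6.74, 6.75 and 6.43 against 4.59, 4.69 and 4.98, at least 1.19-fold higher (limma, adjusted p = 4.50e-06). Adamts6, its relative, had 5.82, 5.50 and 5.53 against 2.07, 1.13 and 1.21 (limma, adjusted p = 1.07e-06), with 2 arrays above background. Adamts17 did not pass with its brighter probe set, at 5.61, 6.08 and 5.67 against 5.58, 5.73 and 5.61 (limma, adjusted p = 0.352), and its 95% interval ran from -0.16 to 0.45. It was the only member whose groups overlapped.

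The ADAMTS-like genes, whose products bind to the matrix without cutting it, were split. Adamtsl3 gave log2 signals of 6.01, 6.01 and 5.99 on the keratinocyte-labelled arrays and of 0.75, 0.90 and 1.19 on the MEF-labelled ones (limma, adjusted p = 7.55e-09). The first group was just above background, and the second was among the lowest signals of any member. Adamtsl1 was higher on the keratinocyte-labelled arrays too, on signals above background on no array. Adamtsl4, a gene of fibrillin microfibrils, had 6.59, 6.79 and 6.55 against 6.43, 6.23 and 6.39, a difference of 1.22-fold (limma, adjusted p = 0.0334). Only 1 of the 3 MEF-labelled arrays was above background for it. The call of Adamtsl4 was lost without replicate 2 labelled keratinocytes (limma, adjusted p = 0.106). It was lost too without replicate 2 or 3 labelled MEFs (limma, adjusted p = 0.123 and 0.0645). With the replicate number as a block it was also lost (limma, adjusted p = 0.0818). Adamtsl5 went the other way, with 6.17, 6.30 and 6.16 against 6.86, 6.76 and 6.71, 1.48-fold higher on the MEF-labelled arrays (limma, adjusted p = 6.24e-04).

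**Figure D2:**
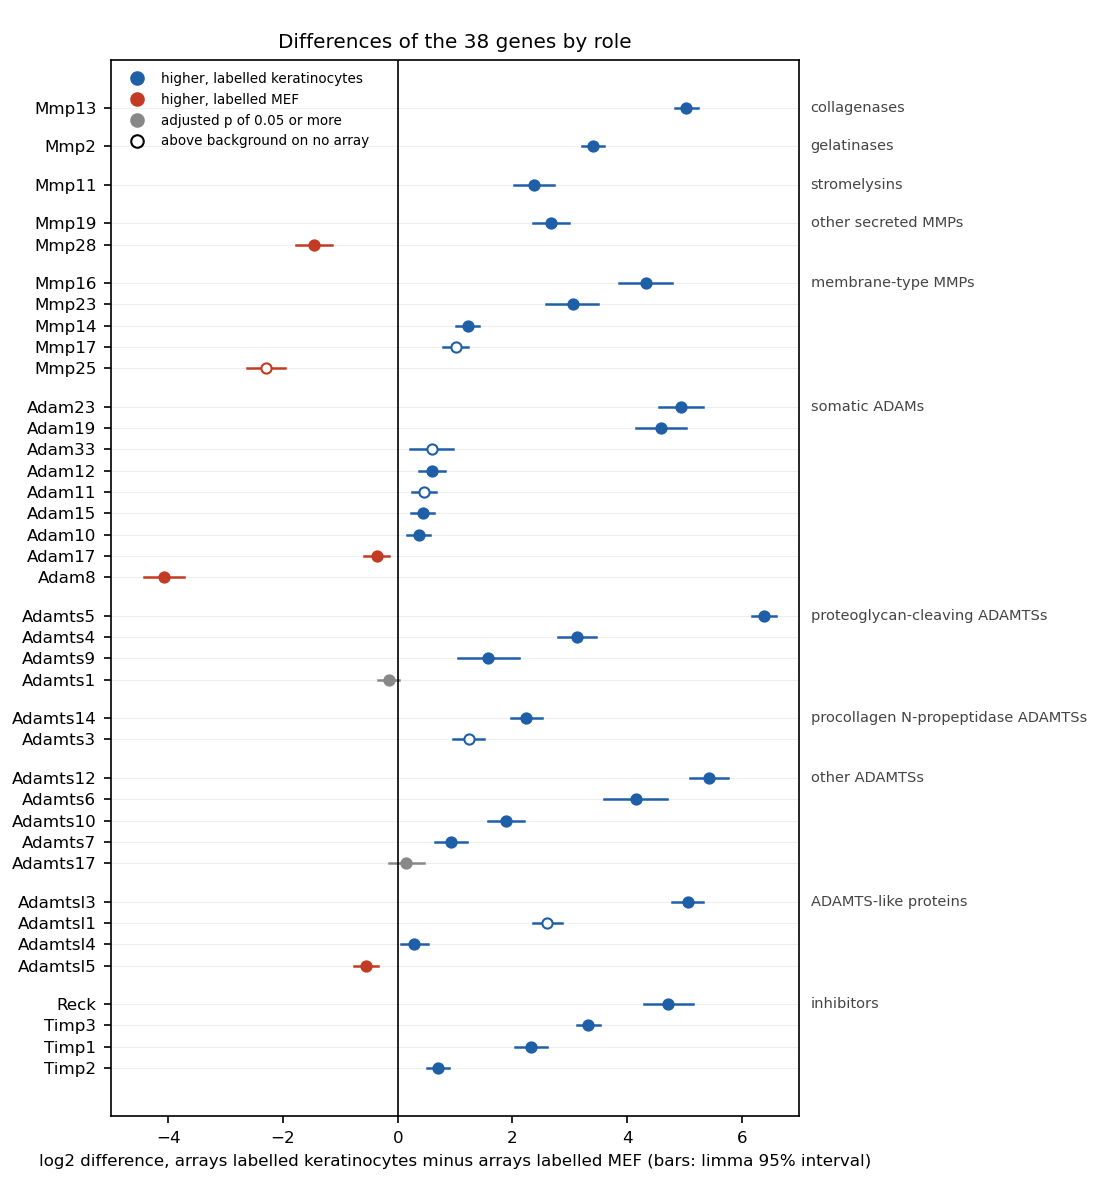
Log2 difference (horizontal axis, arrays labelled keratinocytes minus arrays labelled MEF) of the 38 genes grouped by role, with bars for the 95% interval of limma, blue and red for genes that passed in either direction, grey for the 2 that did not and open circles for the 6 above background on no array. The inhibitors and all ADAMTSs that passed lie to the right of 0, and the ADAMs lie near 0 apart from Adam23, Adam19 and Adam8.

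Of the 38 genes, 4 are read by several probe sets, and no gene had probe sets that passed in opposite directions. Over all probe sets, 32.4% were higher on the keratinocyte-labelled arrays and 41.6% on the MEF-labelled ones. Adamts3 has 8 probe sets, and all 8 were higher on the keratinocyte-labelled arrays by 0.66 to 2.73 on the log2 scale. None of them was above background on any array. For Adamts9, all 6 were higher there by 1.34 to 3.61, and 2 were above background. The brightest probe set, which stands for the gene, gave 1.58, near the lower end of that range. Both probe sets of Adamtsl1 were higher there, by 2.29 and 2.61. Of the 2 for Adamts17, the dimmer passed, with log2 signals of 5.74, 5.88 and 5.37 against 5.34, 4.98 and 5.28 (limma, adjusted p = 0.0259), and the brighter did not. Probe sets of 1 gene share its transcripts and are not independent.

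**Figure D3:**
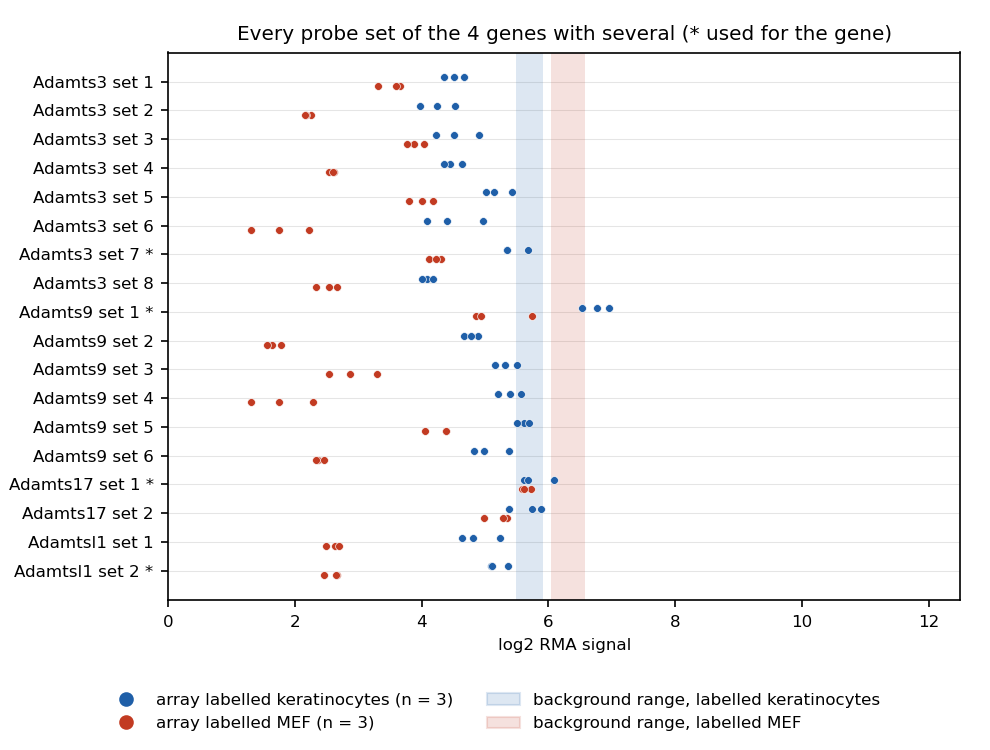
Log2 RMA signal (horizontal axis) of each probe set of Adamts3, Adamts9, Adamts17 and Adamtsl1, numbered in the order of their identifiers, with each point an array labelled keratinocytes (blue) or MEF (red) and bands for the background range of each label. All 8 sets of Adamts3 and all 6 of Adamts9 have their blue points to the right of the red ones, and set 1 of Adamts17 overlaps.

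Genes that act with these enzymes were read from lists of activators and partners. Of 17 measured, 11 were higher on the keratinocyte-labelled arrays, 5 on the MEF-labelled ones and 1 did not pass, with a median log2 difference of 0.33. The shares over all genes were 32.9% and 41.7%. On no array were 5 of the 17 above background. Among the rest, 7 were higher on the keratinocyte-labelled arrays and 4 on the MEF-labelled ones. Furin, a convertase that removes propeptides of MMP14, MMP11 and ADAMs, stood at 8.31 ± 0.05 (SD, n = 3) on the keratinocyte-labelled arrays against 7.67 ± 0.03 (SD, n = 3), 1.57-fold higher (limma, adjusted p = 1.59e-04). Lrp1, a receptor that takes up MMPs and their complexes with TIMPs, was 6.78-fold higher there, at 10.11 ± 0.04 against 7.35 ± 0.16 (limma, adjusted p = 8.78e-08). Plat, the tissue-type plasminogen activator, was at least 2.76-fold higher there (limma, adjusted p = 1.45e-07). Spock3 and Pcsk6 also passed in this direction, by 2.36 and 2.12 on the log2 scale. Spock3 was above background on no array, and Pcsk6 on 2 of the 3 labelled keratinocytes.

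Partners of ADAM10 and ADAM17 within this list, picked out after their values were seen, passed in both directions. Tetraspanins of the TspanC8 group escort ADAM10 to the cell surface: Tspan5 was 2.94-fold higher on the keratinocyte-labelled arrays (limma, adjusted p = 3.29e-06), although only 1 of the 3 MEF-labelled arrays was above background, and Tspan14 was 3.37-fold higher on the MEF-labelled ones, at 9.16 ± 0.09 against 7.41 ± 0.12 (limma, adjusted p = 1.06e-06). Tspan15 was higher on the MEF-labelled arrays below background, and Tspan17 was higher by 0.28 on the log2 scale on the keratinocyte-labelled ones, also below background. Rhbdf2, or iRhom2, needed for the maturation of ADAM17, was 2.75-fold higher on the MEF-labelled arrays, at 7.34 ± 0.08 against 5.88 ± 0.07 (limma, adjusted p = 1.81e-06). Frmd8, which stabilises iRhoms, was higher there too, by 0.26 on the log2 scale (limma, adjusted p = 0.0351). Rhbdf1, the paralogue of Rhbdf2, did not pass, at 7.12 ± 0.08 against 6.98 ± 0.06 (limma, adjusted p = 0.178). Among all genes tested, 41.7% were higher on the MEF-labelled arrays. Of the ligands of the EGF receptor that ADAMs release, 4 of 4 measured were higher there. Among them Tgfa was at least 3.50-fold higher (limma, adjusted p = 5.41e-08) and Epgn at least 3.42-fold (limma, adjusted p = 6.58e-09), while Hbegf was 1.36-fold higher (limma, adjusted p = 4.26e-03) and Ereg passed below background.

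Astacin metalloproteinases and procollagen processing genes are another zinc protease family and its helpers. Bmp1, which removes the carboxy-terminal propeptide of procollagens, was 1.42-fold higher on the keratinocyte-labelled arrays (limma, adjusted p = 9.35e-04), and its relative Tll1 stood at 7.17 ± 0.11 against 7.16 ± 0.09 and did not pass (limma, adjusted p = 0.926). The enhancers of that step parted: Pcolce was at least 23.4-fold higher on the keratinocyte-labelled arrays (limma, adjusted p = 1.11e-09), and Pcolce2 was 4.78-fold higher on the MEF-labelled ones (limma, adjusted p = 1.28e-05), where 1 of the 3 keratinocyte-labelled arrays was above background. All 13 measured matrix substrates were higher on the keratinocyte-labelled arrays, where 32.9% of all genes were higher, with a median log2 difference of 6.85. For 11 of them no MEF-labelled array was above background, so that this median has no reliable size. Among these, Col1a1 was at least 73.2-fold higher, Bgn at least 45.8-fold, Col3a1 at least 21.7-fold and Fbn2 at least 13.8-fold. The list also includes versican (Vcan, 2.81-fold, adjusted p = 4.14e-06 from limma), fibronectin (Fn1, 8.41-fold, adjusted p = 1.63e-08 from limma) and the collagen gene Col1a2 (at least 66.8-fold, adjusted p = 5.60e-09 from limma). Aggrecan and COMP, substrates of the ADAMTSs named above, were above background on no array. Col1a1 and Col1a2 also stand among the fibroblast markers read above, so the count of 13 repeats part of that check.

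**Figure D4:**
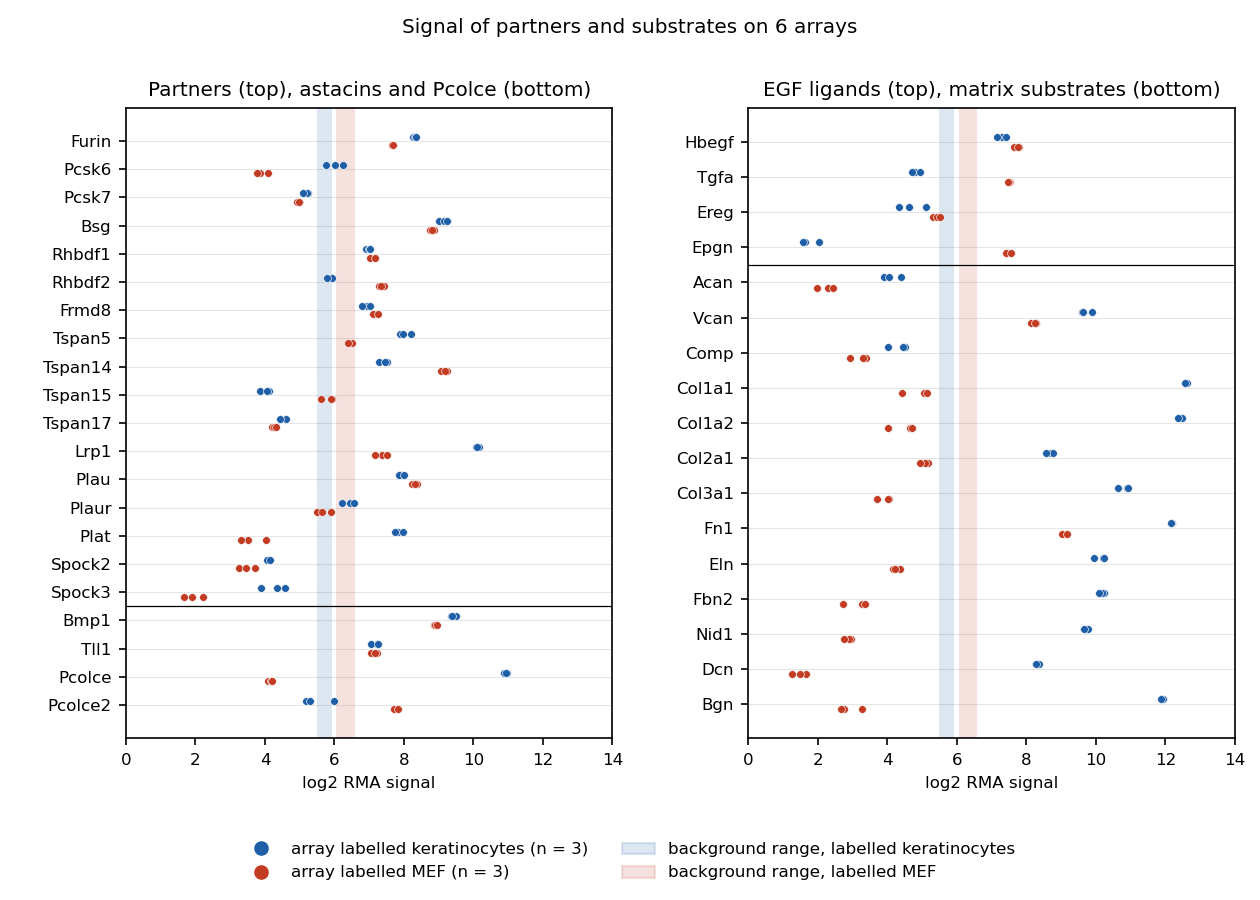
Log2 RMA signal (horizontal axis) of 17 activators and partners and 4 astacin and procollagen processing genes (left) and of 4 EGF receptor ligands and 13 matrix substrates (right), with each point an array labelled keratinocytes (blue) or MEF (red) and bands for the background range of each label. The ligands lie to the right on the arrays labelled MEF and the matrix substrates on the keratinocyte-labelled ones, while the partners are mixed.

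Markers of other cell types that also use these enzymes were read from lists, and within the cartilage and macrophage lists they went in both directions. Of 5 measured cartilage markers, 4 were higher on the keratinocyte-labelled arrays, against 32.9% of all genes. The summed linear signal of the 5 was 576 to 638 on these arrays against 289 to 301. Col2a1 stood at 8.68 ± 0.10 (SD, n = 3) against 5.06 ± 0.11 (SD, n = 3), Acan, Comp and Col9a1 were above background on no array, and Sox9 was higher on the MEF-labelled arrays. Of 2 measured macrophage markers, Cd68 was higher on the MEF-labelled arrays, at 8.56 ± 0.12 against 4.64 ± 0.32. Lyz2 was higher on the keratinocyte-labelled ones, of which 1 was above background. The summed signal of Cd68 and Lyz2 was 48.0 to 75.3 on the keratinocyte-labelled arrays and 349 to 414 on the MEF-labelled ones. Neither of the 2 measured endothelial markers, Kdr and Egfl7, reached background on any array, although both passed as higher on the MEF-labelled arrays, with a summed signal of 79.5 to 92.5 against 35.6 to 41.3, and of 2 skeletal muscle markers, Des was above it on 1 array, with a summed signal of 67.7 to 94.2 on the keratinocyte-labelled arrays against 17 to 20.4. No neutrophil or osteoblast marker was analysed here. The part of such cells in the members' differences was not tested.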

How the data were processed

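RNA of 3 samples labelled keratinocytes and 3 labelled MEFs was measured on 6 arrays. The authors deposited log2 values for 15648 probe sets. Their methods state RMA normalization with oligo, whose version is 1.46.0 per the submitters' processing notes. The scale was taken from the range of the values, and no source used here says which arrays were normalized together. RMA gives the arrays it treats together 1 distribution, which limits what can be said of total RNA.

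The platform's probe table gave 1 symbol for 11288 probe sets and several for 645, which were left unnamed, and it does not list 3715. Samples were grouped by their labels. Differences were tested without a block (limma 3.58.1, R 4.3.3), with Benjamini-Hochberg adjustment over the 11288 probe sets, and the script was checked on simulated data. The brightest probe set stood for each of 10261 genes. The number of arrays limits the precision.

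Values of each array are given for the inhibitors and, in each role list, for up to 4 members per direction with the largest differences among those that passed, did not overlap and were above background on some array. Members that passed against their list, members that did not pass, and up to 4 genes of each pathway list are also named. Adam10, and the further partners, substrates and markers, were added after their values were seen. The members and the lists were chosen with earlier results of these data known.

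The alternatives were a replicate block, leaving out each array, centring on the median, quantile normalization and filters on dim probe sets. Others were a trended robust fit, Student's t-test, averaging the probe sets of a gene, fitting the unnamed probe sets too, and requiring a log2 difference of 1. For the array differences the methods name limma, and they name Student's t-test for comparisons with a control. Promoter windows came from RefSeq (GRCm38.p6), and none was used for Adam11, Adam12, Adam33, Adamts10, Adamts4, Adamts5, Adamts6, Adamts7, Adamtsl1, Mmp16, Mmp17, Mmp19 and Mmp2. Plots were made with matplotlib 3.10.9 (Python 3.11.15).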

Additional observations from a re-analysis of the deposited data

How the results depend on the processing

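The count of 31 members higher on the keratinocyte-labelled arrays stayed between 30 and 31 with each array left out in turn and was 29 to 31 in the settings that tested all 38 members without a minimum difference. Over all genes, 30% to 37% were higher there in these settings. The member count was 23 with a minimum log2 difference of 1, which 14.1% of all genes reached in this direction. With the lowest 25% of probe sets left out, 25 members were tested and 19 were higher there, against 31.4% of all genes tested. The count of 5 members higher on the MEF-labelled arrays was 5 with each array left out, against 36.5% to 40.9% of all genes. It was 6 with an intensity trend and robust estimation (42.4% of all genes) and 6 with Student's t-test (37.9%). With the lowest 25% left out it was 4 of 25 (47.1%), and with a minimum difference of 1 it was 3 (14.4%). It was 3 of 26 tested where probe sets above background on fewer than 3 arrays were left out, against 45.4% of all genes tested. Many members pass this filter only through the group where they are high, so that it says nothing about stability. Median centring moved the median difference of all genes by 0.10 on the log2 scale and changed no call among the members. The differences of Cdh1 and Vim ranged from -5.94 to -5.35 and from 8.11 to 8.18 with each array left out.

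The replicate numbers are shared by the groups, but the deviations of same-numbered arrays from their group means had correlations of -0.231, -0.209 and -0.032, so that the numbers were not taken as pairs. With the replicate number as a block, 30 members were higher on the keratinocyte-labelled arrays and 5 on the MEF-labelled ones. The shares over all genes were 30.4% and 38.4%. The minimum difference of 1 removed 10 calls. Apart from that setting, 34 members kept their direction and call in every setting that tested them. The exceptions were Adamtsl4, Adamts1, Adam33 and Adamts17. For Adam33 the call was lost with Student's t-test (adjusted p = 0.0596). Adamts17 did not pass, and with each array left out its log2 difference ranged from -0.00115, without replicate 2 labelled keratinocytes, to 0.23. The cause was not tested. Signals under the olfactory receptor background have no reliable size, which concerns the 6 members above it on no array and every lower bound.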

Other observations

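Factors of the AP-1 family, whose motif lies in the Mmp13 promoter, were measured as a list of 7 genes. Of these, 3 were higher on the keratinocyte-labelled arrays, 2 were higher on the MEF-labelled ones, and Junb and Jund did not pass. The shares over all genes were 32.9% and 41.7%, so these counts are no result about the AP-1 family. Jun was at least 2.69-fold higher on the keratinocyte-labelled arrays, with a mean ± SD of 7.81 ± 0.18 on the log2 scale against 5.51 ± 0.01, 3 arrays each (limma, adjusted p = 3.23e-07). Fosl2 was 1.90-fold higher there (limma, adjusted p = 2.89e-05). Fos and Fosl1 were higher on the MEF-labelled arrays, at 6.47 ± 0.10 against 4.95 ± 0.36 and at 6.58 ± 0.20 against 5.73 ± 0.10 (limma, adjusted p = 7.05e-05 and 3.27e-04). Both lay near background: Fos exceeded it on 1 MEF-labelled array only, and Fosl1 on 2 MEF-labelled arrays and 1 labelled keratinocytes. The adjusted p from limma was 0.138 for Junb and 0.0901 for Jund. The remaining gene, Fosb, passed as higher on the keratinocyte-labelled arrays and was above background on no array.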
